A study of Rattus norvegicus with 18 samples.

Results

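The TGF beta pathway was followed from ligand to target in 10 genes of rat synovial macrophages sorted after experimental knee osteoarthritis (OA) or sham surgery. The genes were chosen by symbol and comprise the ligands Tgfb1, Tgfb2 and Tgfb3, the latent binding protein Ltbp1, the receptors Tgfbr1, Tgfbr2 and Tgfbr3, the signal transducer Smad3, the inhibitory Smad7 and the target Tgfbi. Each of the 10 had a row in the tables of both time points, among 30643 genes per table, and all 10 passed the filter on low values. The rats were wild type male Sprague Dawley animals, 12 weeks old at surgery. In the OA groups the joint was opened and the anterior cruciate ligament and the medial meniscotibial ligament were cut, whereas in the sham groups it was opened and no ligament was cut. Synovium from the entire knee was digested 4 or 12 weeks later, and cells carrying CD11b/c were collected on magnetic beads. There were 5 OA and 5 sham libraries at 4-weeks, each from 4 pooled rats, and 4 OA and 4 sham libraries at 12-weeks, each from 3 pooled rats. The spread between libraries is therefore a spread between pools, and rats within a pool cannot be told apart.

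TGF beta is secreted in a latent complex, held by its own propeptide and by latent binding proteins such as Ltbp1, and is released by integrins and proteases. The free ligand binds the type II receptor Tgfbr2, which recruits and phosphorylates the type I receptor Tgfbr1, while the coreceptor Tgfbr3 (betaglycan) presents ligand. Tgfbr1 then phosphorylates Smad2 and Smad3, which move to the nucleus with Smad4 and act on target genes, among them Smad7, which blocks the receptor, and Tgfbi, which encodes a secreted matrix protein. In the synovium the pathway is known for its part in fibrosis and in the control of macrophages.

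Levels are given as normalized reads, which are the reads of a gene divided by a size factor that the authors computed with DESeq2 within each time point, so levels at 4-weeks and 12-weeks are not on a common scale. Lengths of transcripts were not used here, so no level is compared between genes. Recovered reads per library ranged from 4662344 to 18080503, and each of the 10 genes had at least 120 reads in every library. In 1 library, sham replicate 3 at 4-weeks, depth was lowest and the median normalized value over all genes was 20.9, against 5.42 to 8.73 in the other 17. The sorted cells carried the macrophage gene Csf1r at 20784 to 28192 normalized reads at 4-weeks and 25265 to 36139 at 12-weeks, and all 16 macrophage markers were measured in every comparison. They were not free of other cells. Col1a1, a fibroblast collagen, reached 8093 to 25720 at 4-weeks and 10716 to 23039 at 12-weeks, and the endothelial cadherin Cdh5 reached 5052 to 7378 and 4447 to 7316. In such bulk samples fewer cells of a type and less RNA per cell cannot be told apart.

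At 4-weeks after OA induction, 8 of the 10 genes had a mean log2 level above sham, beside 57.1% of all 14861 genes tested. Their median log2 fold change (OA minus sham) was 0.14, beside 0.03 over all genes. Tgfbr1, the type I receptor, and Smad7, the inhibitory Smad, were the 2 with an unadjusted limma p under 0.05, both higher in OA. Among all genes, 7.92% had such a p in either direction, and 4.1% were higher. At 12-weeks, 7 of the 10 were above sham, beside 47.5% of 14666 genes, and their median was 0.12, beside -0.01 over all genes. Here 3 of the 10 had an unadjusted p under 0.05, beside 12.4% of all genes. Tgfbr1 was again higher in OA, while Ltbp1 and Tgfbr3 were lower. OA and sham libraries did not overlap in 0 of the 10 at 4-weeks, beside 1.87% of all genes, and in 2 of the 10 at 12-weeks (Tgfbr1 and Smad3), beside 6.29%. At the threshold used by the study, a log2 fold change of at least 0.5 and an adjusted p under 0.05, limma called 0 of the 10 at both time points, beside 0 of all genes, of which 1177 and 1814 had an unadjusted p under 0.05. DESeq2 on the recovered reads called Tgfbr1 at 12-weeks, beside 0.668% of all genes, and 0 of the 10 at 4-weeks, beside 0.209%. The quasi-likelihood test of edgeR called 0 of the 10 at both time points, and 1 gene (0.00673%) and 0 genes in all.

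**Figure D1:**
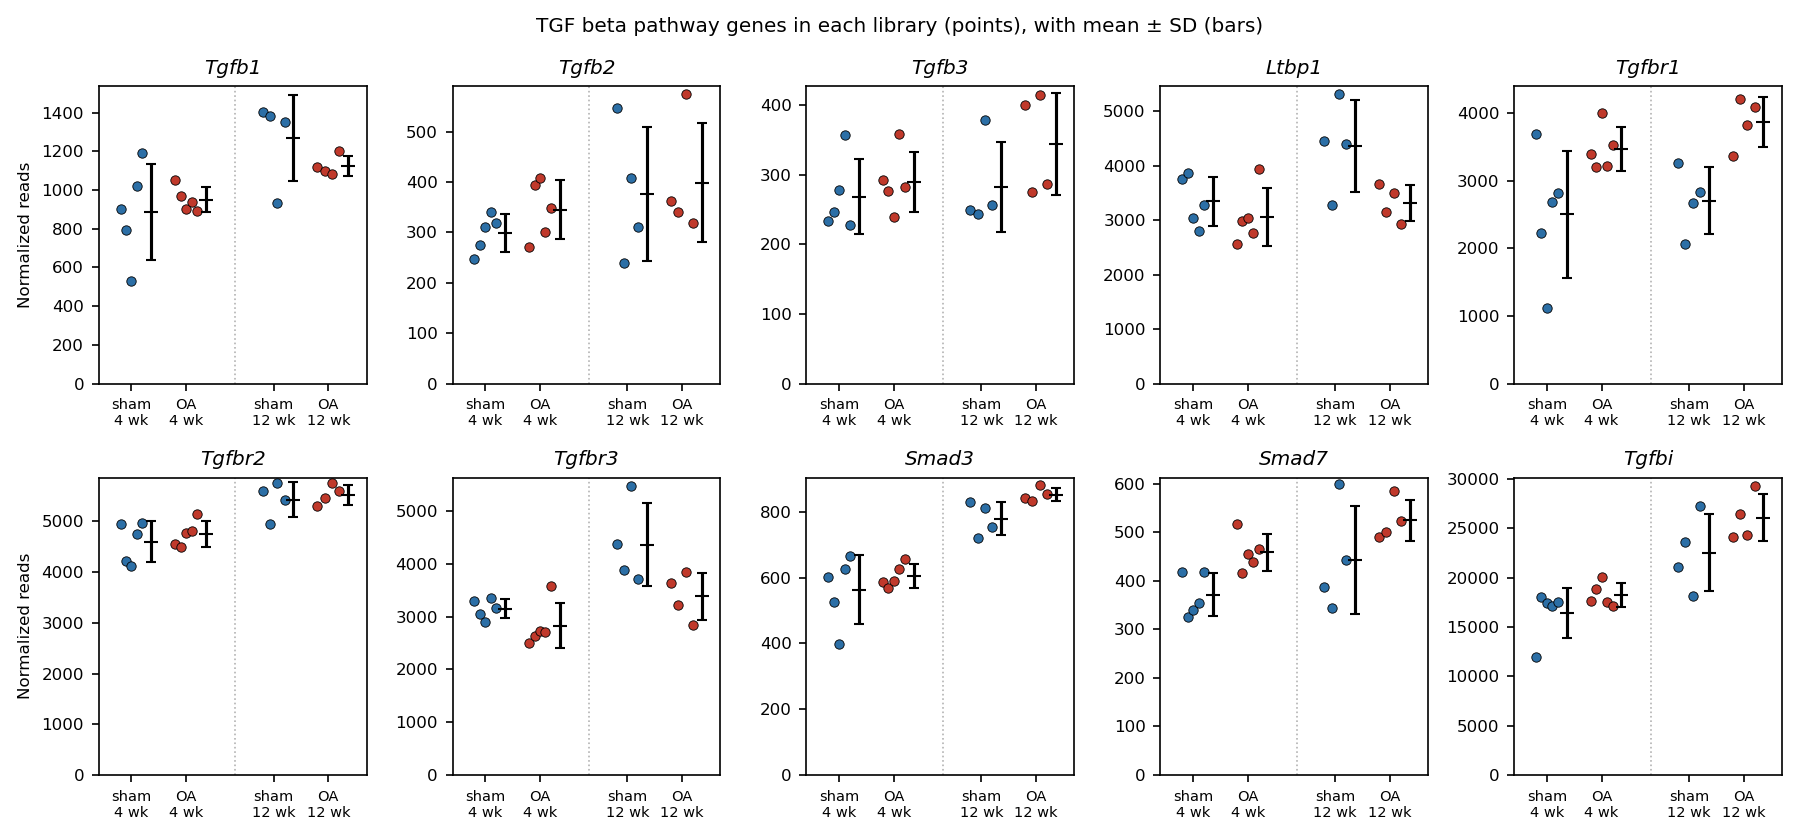
Normalized reads of the 10 genes in each library (points), with the mean ± SD beside each group (bars), for sham and OA at 4 weeks (5 libraries each) and 12 weeks (4 libraries each), each panel with its own axis from 0. Tgfbr1 at 12 weeks lies between 3364 and 4206 in OA and between 2060.1 and 3257 in sham, without overlap.

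**Figure D2:**
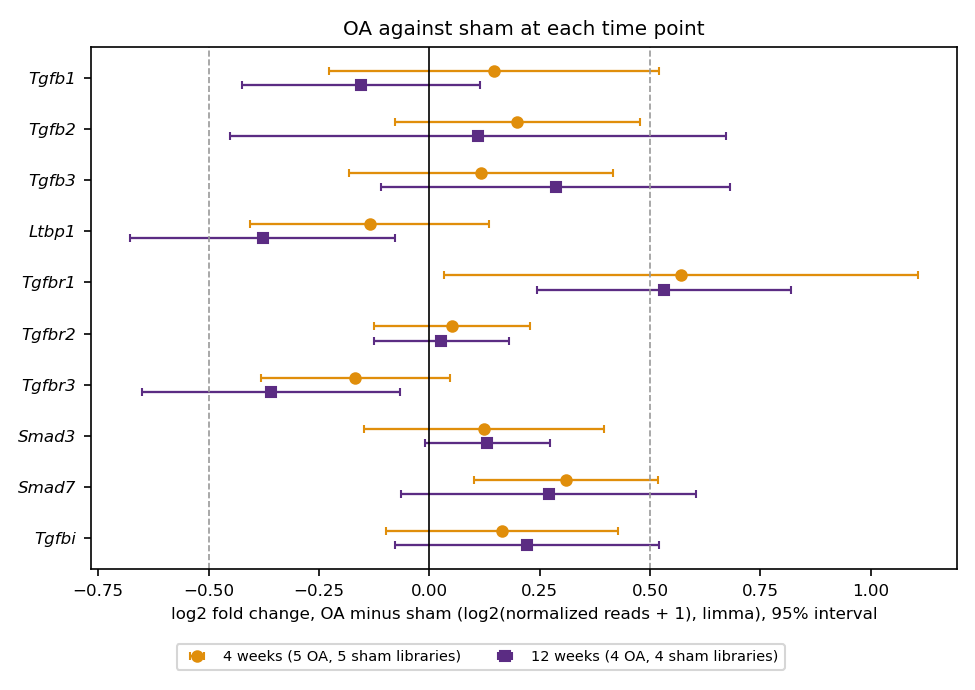
Log2 fold change of OA against sham (horizontal axis, log2 of normalized reads plus 1, limma) with its 95% interval for each gene at 4 and 12 weeks; dashed lines mark a log2 fold change of 0.5 in either direction. The intervals of Tgfbr1 lie above 0 at both time points, that of Smad7 at 4 weeks only, and those of Ltbp1 and Tgfbr3 lie below 0 at 12 weeks.

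Tgfb1 (ENSRNOG00000020652), the ligand best known in immune cells, did not separate OA from sham at 4-weeks. OA libraries ranged from 894 to 1051 normalized reads and sham libraries from 532 to 1189, with the lowest value in the shallow sham replicate 3. The log2 fold change was 0.15 (SE 0.17), and -0.03 without that library. At 12-weeks Tgfb1 was at 1118, 1097, 1081 and 1199 in OA and at 1403, 1379, 935 and 1350.3 in sham. The OA libraries were close together and below 3 of the 4 sham libraries, while sham replicate 3 was below all of them. This was a log2 fold change of -0.16 (SE 0.12, limma adjusted p = 0.600). Without sham replicate 3 at 12-weeks it was -0.29, with a limma adjusted p of 0.084.

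Tgfb2 and Tgfb3 were higher in mean in OA at both time points, each within the spread between libraries. For Tgfb2 (ENSRNOG00000002418), the isoform that depends most on betaglycan for receptor binding, OA ranged from 271 to 407 and sham from 247 to 339.9 at 4-weeks, a log2 fold change of 0.20 (SE 0.13). At 12-weeks OA ranged from 319 to 574 and sham from 239 to 546, a log2 fold change of 0.11 (SE 0.25), and the sign turned when OA replicate 3 (-0.08) or sham replicate 2 (-0.09) was left out. Tgfb3 (ENSRNOG00000009867), an isoform that fibroblasts also make, ranged at 4-weeks from 239 to 359 in OA and from 228 to 357 in sham, a log2 fold change of 0.12 (SE 0.14). At 12-weeks Tgfb3 was at 399.7, 275, 415 and 287 in OA and at 250.1, 243, 379 and 256 in sham. Again 1 sham library, replicate 3, stood above the other sham libraries and inside the OA range. The log2 fold change was 0.29 (SE 0.18, limma adjusted p = 0.517), 0.44 without that library (limma adjusted p = 0.290) and 0.19 without OA replicate 3 (limma adjusted p = 0.744).

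The mix of the 3 ligands was compared as each ligand's percent of their summed reads, a quantity that does not depend on scaling between libraries. Since reads were not divided by length, the percents serve to compare groups and not ligands. At 4-weeks Tgfb1 held 59.9% ± 2.92 (SD, n = 5) in OA and 60.2% ± 8.03 in sham. At 12-weeks it held 60.6% ± 6.26 (SD, n = 4) in OA and 65.7% ± 8.67 in sham. The share of Tgfb3 at 12-weeks was 18.3% ± 2.75 in OA and 15.0% ± 4.79 in sham, a difference of 3.37 percentage points (exact permutation test, two-sided p = 0.229, smallest possible 0.0286). The share of Tgfb2 differed by 0.839 points at 4-weeks and 1.72 points at 12-weeks (exact permutation test, two-sided p = 0.738 and 0.686). In all 3 ligands at both time points the shares of OA and sham libraries overlapped.

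Ltbp1 (ENSRNOG00000033090) binds the latent ligand and anchors it in the matrix. At 4-weeks its level was 3059 ± 526 (SD, n = 5) in OA and 3348 ± 456 in sham, a log2 fold change of -0.14 (SE 0.13). At 12-weeks Ltbp1 was at 3676, 3158, 3509 and 2937 in OA and at 4455, 3274, 5328 and 4396 in sham. Among the sham libraries 3 were above every OA library, and sham replicate 2 lay inside the OA range. This gave a log2 fold change of -0.38 (SE 0.14, unadjusted p = 0.0184, limma adjusted p = 0.338), and the exact permutation test gave a two-sided p of 0.0857. Without any single library it stayed between -0.51 and -0.28, with an unadjusted p of 0.0534 without OA replicate 4.

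Tgfbr1 (ENSRNOG00000007036), the type I receptor that carries the kinase activity onward to the Smads, had the largest log2 fold change of the 10 genes at both time points, although at 4-weeks Smad7 had the smaller p. At 4-weeks it was at 3388, 3206, 4007, 3221 and 3527 in OA and at 3683, 2223, 1109, 2685 and 2819.8 in sham. The 5 OA values exceeded 4 of the 5 sham values, and sham replicate 1 was above 4 of the 5 OA libraries. The log2 fold change was 0.57 (SE 0.25, unadjusted p = 0.0396, limma adjusted p = 0.614), and the exact permutation test gave a two-sided p of 0.0476. The lowest value, 1109, came from the shallow sham replicate 3, and without that library the log2 fold change was 0.30 (unadjusted p = 0.0312). The unadjusted p lay above 0.05 in 6 of the 10 fits that left out 1 library, namely each OA library (up to 0.0831, without OA replicate 3) or sham replicate 2, and in edgeR (0.0654).

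At 12-weeks Tgfbr1 was at 3364, 4206, 3829.7 and 4084 in OA and at 3257, 2060.1, 2669.7 and 2827 in sham. No sham library reached the lowest OA library, as for 2.85% of all genes tested in this direction. The ratio of OA to sham was 1.45 and the log2 fold change 0.53 (SE 0.13, 95% interval 0.24 to 0.82). The unadjusted limma p was 0.00204 and the limma adjusted p 0.269, whereas DESeq2 gave an adjusted p of 0.0291 and edgeR an adjusted p of 0.277. The exact permutation test gave a two-sided p of 0.0286, the smallest that 4 against 4 libraries allow. Leaving out each library in turn kept the log2 fold change between 0.41 and 0.63.

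Tgfbr2 (ENSRNOG00000013265), the type II receptor that binds ligand first, hardly separated the groups. At 4-weeks its level was 4755 ± 256 (SD, n = 5) in OA and 4597 ± 406 in sham. At 12-weeks it was 5525 ± 196 (SD, n = 4) in OA and 5427 ± 351 in sham. The log2 fold changes were 0.05 (95% interval -0.12 to 0.23) and 0.03 (95% interval -0.12 to 0.18), and OA and sham libraries overlapped at both time points.

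Tgfbr3 (ENSRNOG00000002093), the coreceptor betaglycan, was lower in mean in OA at both time points. At 4-weeks it was at 2498, 2631, 2727, 2703 and 3571 in OA and at 3297, 3048, 2894, 3353 and 3171 in sham. Among the OA libraries 4 were below every sham library, while OA replicate 5 was above all of them. This was a log2 fold change of -0.17 (SE 0.10, unadjusted p = 0.113, limma adjusted p = 0.673). At 12-weeks Tgfbr3 was at 3635, 3218, 3852 and 2842 in OA and at 4371, 3887, 5481 and 3721 in sham. Here 3 of the 4 OA libraries were below every sham library. The log2 fold change was -0.36 (SE 0.13, unadjusted p = 0.0213, limma adjusted p = 0.349), the exact permutation test gave a two-sided p of 0.0571, and leaving out each library in turn kept the value between -0.43 and -0.24, with an unadjusted p of 0.0646 without OA replicate 4 and 0.0516 without OA replicate 2.

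Tgfbr1 and Tgfbr3 thus had opposite signs, and the reads of Tgfbr1 per read of Tgfbr3 within a library, a ratio chosen after the values were seen and given without a test, show both at once. At 4-weeks this ratio was 0.988 to 1.47 in OA and 0.383 to 1.12 in sham, and the ranges overlapped. At 12-weeks it was 0.926, 1.31, 0.994 and 1.44 in OA and 0.745, 0.530, 0.487 and 0.760 in sham, and all OA values exceeded all sham values. Tgfbr1 alone also separated the groups at 12-weeks, and how often other pairs of genes do so was not counted. The ratio of Tgfbr1 to Tgfbr2 reads, likewise given without a test, was 0.669 to 0.840 in OA and 0.269 to 0.744 in sham at 4-weeks. At 12-weeks it was 0.635 to 0.772 in OA and 0.417 to 0.582 in sham. The ratio of Smad7 to Smad3 reads overlapped at both time points, at 0.583 to 0.664 in OA and 0.468 to 0.738 in sham at 12-weeks.

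The promoters of the 3 genes with the largest differences at 12-weeks are shown because Tgfbr3 and Ltbp1 were both lower in OA and ran together across libraries (r = 0.81) while Tgfbr1 differed from sham in the other direction. The sequences are the 250 bases before the start in RefSeq (GRCr8, not the Rnor_6.0 build to which the authors aligned), read 5′ to 3′ on the strand of the gene. Capitals mark CAGAC, the short Smad-binding letters, and GGGCGG, the letters bound by Sp1, on either strand (GTCTG and CCGCCC on the opposite strand). They lie at chr5:66449148-66449397 (plus strand) for Tgfbr1, chr14:2634044-2634293 (plus strand) for Tgfbr3 and chr6:26177302-26177551 (minus strand) for Ltbp1. The start used is not always the outer end of the annotated gene. That end lies inside the window for Tgfbr1 (66449348) and Ltbp1 (26177346), and directly after it for Tgfbr3 (2634294).
Tgfbr1: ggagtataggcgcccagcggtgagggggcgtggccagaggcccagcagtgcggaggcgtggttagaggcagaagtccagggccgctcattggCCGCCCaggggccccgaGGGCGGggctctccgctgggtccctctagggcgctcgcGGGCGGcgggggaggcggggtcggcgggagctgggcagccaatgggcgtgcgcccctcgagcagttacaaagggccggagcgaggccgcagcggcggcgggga
Tgfbr3: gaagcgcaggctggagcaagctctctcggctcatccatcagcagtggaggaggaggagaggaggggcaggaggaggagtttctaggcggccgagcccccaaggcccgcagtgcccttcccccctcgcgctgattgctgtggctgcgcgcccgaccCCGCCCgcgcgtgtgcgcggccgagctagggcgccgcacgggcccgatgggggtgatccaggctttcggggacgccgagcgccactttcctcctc
Ltbp1: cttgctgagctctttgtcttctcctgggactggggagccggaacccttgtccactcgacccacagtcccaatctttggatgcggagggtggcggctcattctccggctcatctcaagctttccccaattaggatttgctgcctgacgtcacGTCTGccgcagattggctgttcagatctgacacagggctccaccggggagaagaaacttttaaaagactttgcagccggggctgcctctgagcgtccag
In these windows Tgfbr1 held 3 copies of GGGCGG or its reverse, Tgfbr3 held 1, and Ltbp1 held none but had 1 copy of GTCTG. Over the whole 300-base windows, which reach 50 bases past the start, CAGAC on either strand was found in 1 of the 10 genes and in 50.1% of 33469 RefSeq promoters, and GGGCGG in 6 of the 10 and in 33.1%. The palindrome GTCTAGAC (0.197% of promoters) and the AP-1 letters TGANTCA (7.33%) were in none of the 10 windows. The windows of Tgfb2, Tgfb3 and Tgfbr2 lay wholly inside the annotated gene. A match describes letters in a window and not a bound site.

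Smad3 (ENSRNOG00000008620), which carries the receptor signal to the nucleus, was at 606 ± 35.8 (SD, n = 5) in OA and 564 ± 106 in sham at 4-weeks, a log2 fold change of 0.12 (SE 0.13) that was 0.004 without sham replicate 3. At 12-weeks it was at 841, 833, 880.5 and 855 in OA and at 829, 722, 811 and 755 in sham. The groups did not overlap, as for 2.85% of all genes with OA higher, yet the nearest libraries differed by few reads (833 and 829). This gave a log2 fold change of 0.13 (SE 0.06, unadjusted p = 0.0666, limma adjusted p = 0.427).

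Smad7 (ENSRNOG00000018359) encodes the Smad that sends the receptor to degradation and is itself induced by TGF beta. At 4-weeks it was at 518, 415, 456, 439 and 465 in OA and at 419, 325, 339, 355 and 419 in sham. In OA 4 values exceeded every sham value, and OA replicate 2 was just below the upper sham pair. The log2 fold change was 0.31 (SE 0.10, 95% interval 0.10 to 0.52, unadjusted p = 0.00699, limma adjusted p = 0.511), the exact permutation test gave a two-sided p of 0.0238, and DESeq2 an adjusted p of 0.196. Leaving out each library in turn kept it between 0.26 and 0.35. At 12-weeks Smad7 was at 490.4, 500.4, 584 and 522 in OA and at 388, 344, 599 and 444 in sham. Of the 4 sham values 3 lay below all OA values, and sham replicate 3 lay above them all. This was a log2 fold change of 0.27 (SE 0.15, unadjusted p = 0.102, limma adjusted p = 0.476), 0.42 without that library (limma adjusted p = 0.126) and 0.16 without sham replicate 2 (limma adjusted p = 0.619).

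Tgfbi (ENSRNOG00000012216), a matrix protein named for its induction by TGF beta and abundant in macrophages, was higher in mean in OA at both time points, with overlap. At 4-weeks OA ranged from 17121 to 20072 and sham from 11949 to 18011, a log2 fold change of 0.16 (SE 0.12). The lowest value belonged to sham replicate 1, and without it the log2 fold change was 0.05. At 12-weeks Tgfbi was at 24138, 26456, 24351 and 29262 in OA and at 21079, 23639, 18129.8 and 27279 in sham. The highest sham library lay inside the OA range. The log2 fold change was 0.22 (SE 0.13, limma adjusted p = 0.509).

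Leaving out sham replicate 3 at 12-weeks raised the number of the 10 genes with an unadjusted p under 0.05 from 3 to 6, beside 12.9% of all genes in that fit. The added genes were Tgfb1, which was lower in OA, and Tgfb3 and Smad7, which were higher. For Tgfbi the log2 fold change was 0.12 in that fit, against 0.22 with all libraries. Leaving out any other library gave 1 to 4 genes, with 1 (beside 6.53% of all genes) without OA replicate 4 and 2 (beside 13% of all genes) without OA replicate 2. Sham replicate 3 had the lowest macrophage marker sum at 12-weeks (171454 normalized reads, against 207782 to 246639 in OA) and the highest endothelial sum (76974, against 47694 to 58865 in OA). It also had the highest mural sum (26606) and the highest fibroblast sum among the sham libraries (97084, inside the OA range, with the sham median at 68867). The part of these cells in the values was not tested.

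Whether the effect of surgery differed between time points was tested for each gene in a limma fit of all 4 groups on log2 CPM, the recovered reads scaled to library size. None of the 10 genes had an unadjusted p under 0.05 for this difference, beside 3.92% of 14732 genes, and limma called 0 genes in all, of which 578 had such a p. The differences (12-week effect minus 4-week effect) ran from -0.35 for Tgfb1 (95% interval -0.89 to 0.19) to 0.12 for Tgfb3 (95% interval -0.37 to 0.60). Their median was -0.088, beside -0.096 over all genes. For Tgfbr1 the difference was -0.09 (95% interval -0.81 to 0.63), and it was 0.20 without sham replicate 3 at 4-weeks. For Smad7 it was -0.09 (95% interval -0.47 to 0.29), for Ltbp1 -0.29 (95% interval -0.71 to 0.12) and for Tgfbr3 -0.24 (95% interval -0.61 to 0.12). All of these intervals held 0.

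Levels at 12-weeks were also set against levels at 4-weeks in the same fit. Time since surgery cannot be told apart here from the age of the rats, the pool size of 4 or 3 rats and any difference in processing between the time points. In sham libraries 4 of the 10 genes had an unadjusted p under 0.05, all higher at 12-weeks, beside 14.5% of all genes higher with such a p. These were Tgfb1 (log2 difference 0.41, SE 0.18), Smad3 (0.35, SE 0.13), Tgfbi (0.32, SE 0.13) and Tgfbr3 (0.32, SE 0.12). Each moved by over 1.5 times with 1 library left out. Without sham replicate 3 at 4-weeks Tgfb1 was 0.21 and Smad3 0.20, without sham replicate 3 at 12-weeks Tgfbr3 was 0.19, and without sham replicate 4 at 12-weeks Tgfbi was 0.21. The unadjusted p of Smad3 stayed under 0.05 whichever library was left out, whereas those of Tgfb1, Tgfbi and Tgfbr3 rose above it in 5, 3 and 1 of 18 such fits. In OA libraries 2 of the 10 had such a p, beside 6.69% of all genes higher, namely Smad3 (0.31, SE 0.13) and Tgfbi (0.33, SE 0.13, with an unadjusted p of 0.0613 without OA replicate 4 at 12-weeks). None of these passed the limma threshold on the adjusted p, which was 0.135 to 0.223 in sham and 0.272 to 0.288 in OA, while 1.68% and 0.93% of all genes were called. In CPM, Smad3 was ordered from 63.7 ± 1.54 (SD, n = 4) in OA at 12-weeks through 58.3 ± 3.62 in sham at 12-weeks and 51.6 ± 2.95 (SD, n = 5) in OA at 4-weeks to 46.7 ± 10.1 in sham at 4-weeks. The last pair differed by less than the larger of their SDs. Tgfbi followed the same order, from 1948 ± 176 in OA at 12-weeks through 1686 ± 298 in sham at 12-weeks and 1552 ± 109 in OA at 4-weeks to 1349 ± 201 in sham at 4-weeks, and only the last pair differed by more than the larger of their SDs.

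For Tgfbr1 the order in CPM followed surgery and not time, with 295 ± 28.2 in OA at 4-weeks, 289 ± 28 in OA at 12-weeks, 208 ± 82.3 in sham at 4-weeks and 202 ± 37.6 in sham at 12-weeks. No gap between neighbours in this order exceeded the larger of their SDs. For Tgfbr3 sham at 12-weeks stood highest at 326 ± 55.9, followed by sham at 4-weeks (260 ± 23.7), OA at 12-weeks (253 ± 33.7) and OA at 4-weeks (241 ± 35.7), and only the first gap exceeded the larger SD. For Ltbp1 the order was sham at 12-weeks (326 ± 59.8), sham at 4-weeks (276 ± 41.9), OA at 4-weeks (260 ± 44.4) and OA at 12-weeks (248 ± 25.1), with no gap between neighbours above the larger SD.

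The wider pathway was read from 6 lists that hold 116 genes, 108 of them other than the 10. Of these, 95 were tested at 4-weeks and 93 at 12-weeks. At 4-weeks 11 had an unadjusted limma p under 0.05 and were higher in OA and 1 was lower, beside 4.1% and 3.82% of all genes. At 12-weeks 14 were higher and 6 lower, beside 5.75% and 6.62%. No gene of the lists was called by limma at either time point. Among ligands of the wider superfamily, Gdf15 was higher in OA at 4-weeks (289 ± 65.6 against 198 ± 53.2, SD, log2 fold change 0.55) and Gdf11 lower (112 ± 13.0 against 148 ± 35.4, log2 fold change -0.37). At 12-weeks Gdf15 lay the other way in mean (313 in OA and 386 in sham, log2 fold change -0.31, SE 0.15, unadjusted p = 0.0704). Inhbb (log2 fold change 0.45, SE 0.10, limma adjusted p = 0.403) and Inhba (0.52, SE 0.23, limma adjusted p = 0.616) also had an unadjusted p under 0.05 at 4-weeks. At 12-weeks Inhba was the only ligand of this list with such a p (0.51, SE 0.185, limma adjusted p = 0.345), and Inhbb was at 0.10 (SE 0.26).

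Genes that release or hold latent TGF beta differed in both directions at 12-weeks. Itgb8, the beta subunit of an integrin that activates latent TGF beta, was at 189 to 274 in OA and at 63.6 to 178 in sham. The groups did not overlap, as for 2.85% of all genes with OA higher. This was a log2 fold change of 0.97 (SE 0.27, limma adjusted p = 0.278). Mmp14, a membrane-bound matrix protease, was at 1526 to 1822 in OA and at 715 to 1543 in sham, a log2 fold change of 0.69 (SE 0.20). Lrrc32 (GARP), which holds latent TGF beta on the cell surface, was lower in mean in OA, with a log2 fold change of -0.29 (SE 0.12). Of the 20 genes tested in this list, 5 were higher and 2 lower at an unadjusted p under 0.05, beside 5.75% and 6.62% of all genes. Its median log2 fold change was 0.17. The fibroblast marker Dcn was among the 5, and Ltbp1 among the 2. At 4-weeks 4 of the 20 were higher and 0 lower with such a p, beside 4.1% and 3.82% of all genes. These 4 were Emilin1, Itgb5, Mmp2 and Itgb8 (log2 fold change 0.42, SE 0.19).

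In the list of receptors and coreceptors 15 genes were tested. Only Tgfbr1 was higher with an unadjusted p under 0.05 at either time point, beside 4.1% and 5.75% of all genes. At 12-weeks Tgfbr3 and the endothelial type I receptor Acvrl1 (log2 fold change -0.24, SE 0.09) were lower, beside 6.62% of all genes. Of 17 Smads and partners tested, Smad7 was the only gene with such a p at 4-weeks, beside 7.92% of all genes. At 12-weeks 3 were lower, beside 6.62% of all genes. Among them was Smad1, a Smad of the bone morphogenetic protein branch (log2 fold change -0.27, SE 0.11), which at 4-weeks was at 0.12 (SE 0.12). Fst, which encodes the activin antagonist follistatin, was at 84.7 to 197 in OA and at 211 to 272 in sham at 12-weeks, without overlap, as for 3.44% of all genes with OA lower, a log2 fold change of -0.61 (SE 0.24).

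Of 28 transcriptional targets tested, 4 were higher and 0 lower with an unadjusted p under 0.05 at 4-weeks, beside 4.1% and 3.82% of all genes. At 12-weeks 8 were higher and 0 lower, beside 5.75% and 6.62%. Pmepa1, a target that in turn restrains Smad2 and Smad3, was at 471 to 498 in OA and at 193 to 467 in sham at 4-weeks, and at 497 to 629.5 in OA and at 209.7 to 453 in sham at 12-weeks, without overlap at either time, as for 1.18% and 2.85% of all genes with OA higher. Its log2 fold changes were 0.66 (SE 0.19, limma adjusted p = 0.430) and 0.65 (SE 0.21, limma adjusted p = 0.317). Postn, which encodes the matrix protein periostin, had log2 fold changes of 0.72 (SE 0.18) and 0.84 (SE 0.23). Lox, a collagen cross-linking enzyme, had 0.76 (SE 0.27) at 4-weeks and 0.605 (SE 0.246) at 12-weeks. The list holds 3 genes that also stand in the fibroblast marker list (Col1a1, Col1a2 and Col3a1), and matrix genes in it are made by fibroblasts too. Col1a2 had no row at either time point and was not tested. Col1a1 (log2 fold change 0.57, SE 0.17) and Col3a1 (0.47, SE 0.17) were among the 8 targets higher at 12-weeks. The others were Pmepa1, Postn, Lox, Fn1, Ccn2 and Skil. The part of fibroblasts in this count was not tested.

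**Figure D3:**
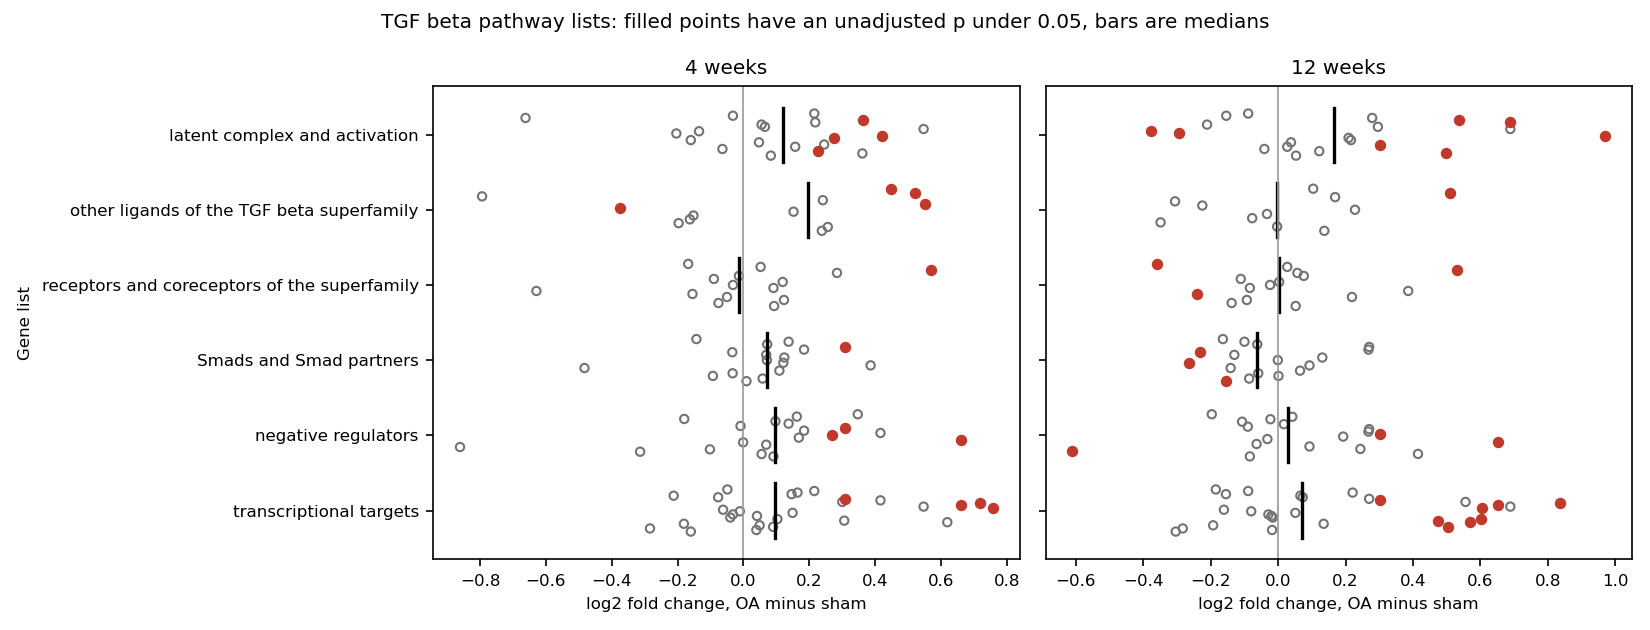
Log2 fold change of OA against sham (horizontal axis) for the tested genes of each of the 6 pathway lists at 4 and 12 weeks; each point is a gene, filled where the unadjusted limma p is under 0.05, and bars are list medians. Of the 28 targets tested, 8 filled points lie above 0 at 12 weeks and none below, beside 5.75% higher and 6.62% lower among all genes. The 8 include the fibroblast markers Col1a1 and Col3a1.

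Fibroblast markers differed with surgery too. Averaged on the log2 scale, their list was at 11.36 in OA and 10.93 in sham at 12-weeks, without overlap (exact permutation test, two-sided p = 0.0286). The nearest libraries were almost equal, at 11.2613 in OA and 11.2611 in sham. At 4-weeks the list was at 10.93 in OA and 10.59 in sham, with overlap (exact permutation test, two-sided p = 0.0794). Summed normalized reads of the list were 92071 to 119025 in OA and 64514 to 97084 in sham at 12-weeks, and 79369 to 120290 in OA and 53428 to 120338 in sham at 4-weeks. These sums overlapped at both time points. The macrophage list had a mean log2 level of 12.79 in OA and 12.66 in sham at 4-weeks and 13.17 and 13.03 at 12-weeks, with overlap at both. Endothelial markers were at 11.45 in OA and 11.53 in sham at 4-weeks and at 11.44 and 11.60 at 12-weeks, with overlap. Mural markers were at 10.58 in OA and 10.71 in sham at 4-weeks (exact permutation test, two-sided p = 0.0397) and at 10.73 and 10.91 at 12-weeks (exact permutation test, two-sided p = 0.229), with overlap at both. Skeletal muscle markers also did not overlap at 12-weeks, at 1661 to 2748 normalized reads in OA and 1341 to 1508 in sham. The part of these cells in the differences between OA and sham was not tested.

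The 10 genes followed these markers to different degrees. The correlations are given as descriptions over 18 libraries, each centred on the mean of its time point, and libraries share depth and size factors with both measures. Tgfbr3 ran against the macrophage list (Pearson's r = -0.77, Spearman's rho = -0.71), more at 12-weeks (r = -0.91) than at 4-weeks (r = -0.52), and was -0.81 without the 2 libraries farthest from the median. It ran with the endothelial list (r = 0.70, rho = 0.55, and 0.54 without the 2 farthest libraries), though at 0.90 at 12-weeks and 0.16 at 4-weeks. With the mural list it was at 0.64 (rho = 0.53), 0.89 at 12-weeks and 0.05 at 4-weeks. Ltbp1 showed the same signs, at -0.57 (rho = -0.60) with the macrophage list and 0.55 (rho = 0.44) with the endothelial list. Without the 2 farthest libraries these were -0.52 and 0.42. With the mural list Ltbp1 was at 0.51 (rho = 0.41). Tgfb3 ran with the fibroblast list (r = 0.73, rho = 0.76, and 0.73 without the 2 farthest libraries), at 0.63 within 4-weeks and 0.85 within 12-weeks. With the same list Smad7 was at 0.59 and Smad3 at 0.47. Within 4-weeks these were 0.40 and 0.39, and within 12-weeks 0.80 and 0.84. Centred on the group mean they were 0.28 and 0.31. Tgfb1 was at 0.05 with this list, 0.46 within 4-weeks and -0.79 within 12-weeks. Tgfbi ran with the macrophage list (r = 0.67, rho = 0.82), at 0.35 within 4-weeks and 0.95 within 12-weeks. Tgfbr1 was at 0.60 with the macrophage list and 0.42 with the fibroblast list, and centred on the group mean in place of the time point these were 0.43 and -0.02. Within 4-weeks Tgfbr1 was at 0.74 and 0.32 with these lists, and within 12-weeks at 0.48 and 0.65. Its value with the macrophage list was 0.43 without sham replicate 3 at 4-weeks and 0.34 without the 2 farthest libraries. With the mural list Tgfbr1 was at -0.58 (rho = -0.62), -0.83 within 4-weeks and -0.45 within 12-weeks.

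**Figure D4:**
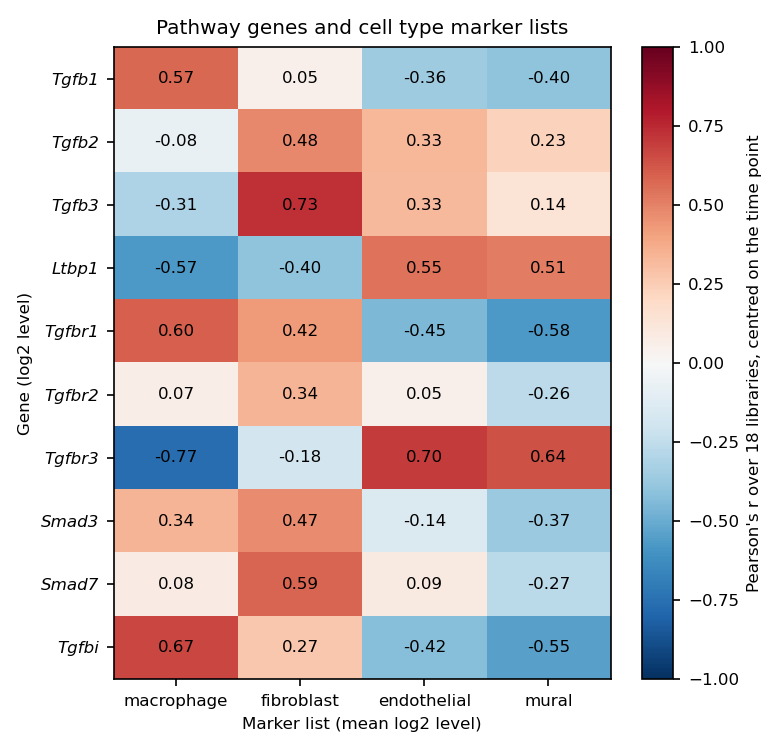
Pearson's r between each gene (rows) and the mean log2 level of 4 marker lists (columns) over 18 libraries centred on the time point, on a colour scale from -1 to 1. Tgfbr3 has the lowest value with macrophage markers (-0.77) and the highest with endothelial markers (0.70), while Tgfb3 has the highest with fibroblast markers (0.73).

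**Figure D5:**
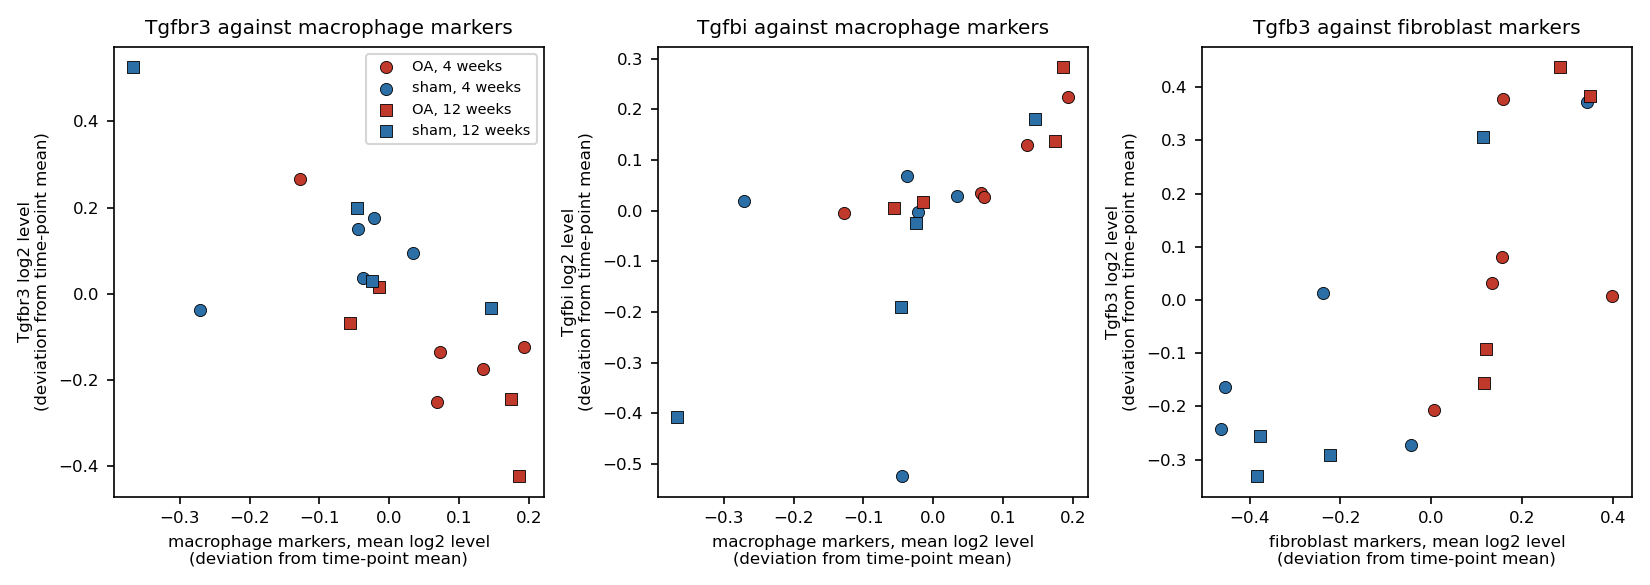
Log2 level of Tgfbr3 and Tgfbi against macrophage markers and of Tgfb3 against fibroblast markers, all as deviations from the time-point mean; each point is a library, red for OA and blue for sham, circles for 4 weeks and squares for 12 weeks. Sham replicate 3 at 12 weeks is the far left square in the macrophage panels, and sham replicate 1 at 4 weeks is the low circle for Tgfbi.

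Among the 10 genes, Tgfbr2 and Smad3 ran together across libraries (r = 0.83, rho = 0.80), as did Ltbp1 and Tgfbr3 (r = 0.81, rho = 0.77). Tgfbr1 and Smad3 had r = 0.85 but rho = 0.53, and r was 0.58 without sham replicate 3 at 4-weeks. Tgfbr3 and Tgfbi ran against each other (r = -0.73, rho = -0.76). Of 11508 genes that averaged 50 or more normalized reads, those whose pattern over the 18 libraries was most like each gene were Vac14 and Inf2 for Tgfb1 (r = 0.95 for both), Ryk (0.71) and Tbx15 (0.70) for Tgfb2, and Tspan11 (0.87) and Prox1 (0.86) for Tgfb3. For Ltbp1 they were Uaca (0.90) and Papln (0.89). For the receptors they were Insig1 and Skil (0.95 for both) for Tgfbr1, H6pd and Btbd19 (0.86 for both) for Tgfbr2, and Fzd4 (0.96) and Tjp1 (0.95) for Tgfbr3. Skil is a Smad corepressor that stands in the pathway lists. For Smad3 they were Fndc3b (0.96) and Atp2b4 (0.94), for Smad7 Klhl25 (0.87) and AABR07007068.1 (0.84), and for Tgfbi Alox5ap and Mgat1 (0.88 for both). Without sham replicate 3 at 4-weeks the values for Tgfb1, Tgfbr1, Tgfbr2 and Smad3 were 0.80 to 0.90, and the others were 0.70 to 0.97.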

How the data were processed

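RNA was sequenced from pools of CD11b/c-sorted rat synovial cells in 18 libraries (Illumina stranded total RNA kit, ribosomal RNA removed). The authors ran fastp 0.20.0, aligned reads to Rnor_6.0 with STAR 2.7.6a, removed duplicates with Sambamba, counted them per gene with featureCounts 2.0.0 and normalized them with DESeq2 1.24.0. Removing duplicates lowers the highest counts most, and how strand was set in counting is not given in the sources used here. What the authors deposited is this normalized signal (in reads), and 100% of the values were whole multiples (within 0.01) of 1 read, so reads could be recovered and counted. Columns with the authors' own comparison (among them mean normalized reads, log2 fold changes, a Wald score and p-values) were deposited beside them and were not used.

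Samples were grouped by the labels. Within a time point, OA and sham were compared by limma 3.58.1 (R 4.3.3, mean-variance trend) on log2(normalized reads + 1) of genes averaging 10 or more, with Benjamini-Hochberg adjustment. The call needed a log2 fold change of 0.5 or more in size and an adjusted p under 0.05. Fold changes of genes with few reads are understated on this scale. The time points were compared in a limma fit of all groups on log2 CPM (prior count 2, TMM) of the recovered reads. Single genes and shares also had a two-sided exact permutation test, whose smallest p is 0.00794 at 4-weeks and 0.0286 at 12-weeks. The alternatives were edgeR 4.0.16 and DESeq2 1.42.0 on recovered reads, TMM, other pseudocounts and filters, sample quality weights, a replicate block and each library left out. The fits were tested on simulated data. Libraries of a group differed beyond sampling noise (chi-square per degree of freedom 5.84 to 38.8 over 32 pairs).

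The genes and lists were chosen with earlier results of these data known. Named beside the 10 genes are up to 4 list genes with the largest difference in each direction among those with an unadjusted p under 0.05, and the 2 genes most like each. Inhba, Inhbb, Dcn, Emilin1, Itgb5, Mmp2, Fn1, Ccn2, Col1a1 and Col3a1 are named outside this rule, after the values were seen. The labels link same-numbered libraries by the number alone, and the main fit did not pair them. Promoters came from RefSeq (GRCr8), where 10 of 10 genes matched. Python 3.11.15, numpy 2.4.6, pandas 2.3.3, scipy 1.17.1 and matplotlib 3.10.9 were used. The 95% intervals come from the limma SE, and intervals and p-values alike measure the spread between pools.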

Additional observations from a re-analysis of the deposited data

Results flagged for a closer look

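In 5 of 40 sets of libraries (10 genes in 4 groups), 1 library stood far from the others of its group, by a rule that chance meets in about 1 in 20 sets. Tgfbr3 in OA replicate 5 at 4-weeks was at 3571 normalized reads, above the other 4 OA libraries (2498 to 2727). Tgfbi in sham replicate 1 at 4-weeks was at 11949, below the other sham libraries (17162 to 18011). Tgfb1 in sham replicate 3 at 12-weeks was at 935, below the other 3 (1350.3 to 1403), and Tgfb3 in the same library was at 379, above the other 3 (243 to 256). Tgfb2 in OA replicate 3 at 12-weeks was at 574, above the other 3 (319 to 361).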

How the results depend on the processing

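Directions of the 10 genes against sham held in 188 of 190 alternative fits at 4-weeks and 167 of 170 at 12-weeks. The exceptions were Tgfb1 at 4-weeks with sample quality weights (-0.00439) and without sham replicate 3, Tgfb2 at 12-weeks without OA replicate 3 or sham replicate 2, and Tgfbr2 at 12-weeks without sham replicate 2. Leaving out a library gave -0.0255 to 0.265 for the first, -0.085 to 0.312 for the second and -0.0171 to 0.0562 for the third. The cause was not tested. DESeq2 called Tgfbr1 at 12-weeks, and no other alternative called any of the 10. The difference between time points turned positive for Tgfbr1 in edgeR (0.0158), in DESeq2 (0.0133) and with sample quality weights (0.0728), with -0.260 to 0.204 when a library was left out, and for Smad7 with sample quality weights (0.0294), with -0.177 to 0.0871 when a library was left out. TMM moved the median of all genes at 4-weeks from 0.03 to 0.08.

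Same-numbered libraries correlated at -0.13 to 0.08 at 4-weeks and -0.03 to 0.30 at 12-weeks. The labels do not say whether the numbers pair libraries, and correlations of so few pairs cannot decide it. With a replicate block, 5 of the 10 genes had an unadjusted limma p under 0.05 at 12-weeks, beside 14.9% of all genes. Without it 3 did, beside 12.4%. With the replicate block limma called 1 gene at 4-weeks and 0 at 12-weeks, and 12 list genes in place of 6 were lower with an unadjusted p under 0.05 at 12-weeks. None of the 10 was called under the block.

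Over all genes at 4-weeks limma called 0, DESeq2 31, and edgeR, TMM scaling and sample quality weights 1 each, with 0 to 1 when a library was left out. At 12-weeks limma called 0 and DESeq2 98, with 0 to 81 when a library was left out (81 without sham replicate 3). For the difference between time points DESeq2 called 2 and limma 0. Between sham at 12-weeks and 4-weeks limma called 247 genes, DESeq2 507 and sample quality weights 374, with 89 to 296 when a library was left out. In OA limma called 137, DESeq2 276, no filter 53 and sample quality weights 592, with 52 to 230 when a library was left out. List genes other than the 10 that were higher with an unadjusted p under 0.05 numbered 7 to 17 at 4-weeks and 8 to 18 at 12-weeks when a library was left out, and those lower 0 to 4 and 1 to 7. DESeq2 and no filter each gave 2 lower at 4-weeks.

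When a library was left out, the OA minus sham difference ran from -0.304 to 2.54 percentage points for the share of Tgfb2 and from -2.03 to 0.898 for Tgfb3 at 4-weeks, and from -0.477 to 3.54 and from 2.17 to 5.72 at 12-weeks. Against macrophage markers, r was -0.89 for Tgfbr3 and -0.68 for Ltbp1 without sham replicate 3 at 4-weeks, and -0.45 for Ltbp1 and 0.57 for Tgfbi when centred on the group mean.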
